A study of Taeniopygia guttata with 169 samples.

Results

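Among 17292 genes measured in zebra finch bone marrow, 28 had control means within 0.5 log2 of each other at 6 and 18 days of age, and lower means at 35 and 90 days. Of the 28, 22 were already lower at day 18 than at day 6 in controls. The 28 genes were chosen on the control birds alone. The deposited normalised counts were put on a log2(value + 1) scale and averaged over the control libraries of each age, leaving out 2 day 90 libraries. A gene was kept when its highest mean was at least 5, its highest and lowest means differed by at least 1, the day 6 and day 18 means differed by less than 0.5, the day 35 and day 90 means differed by less than 0.5, and both early means lay above both late means. The number allowed was 150, and this ceiling was never reached. The value that ranked the genes, the lower early mean minus the higher late mean, ran from 0.22 to 0.92 on the log2 scale with a median of 0.51, so these are genes with moderate differences. Because control levels chose the genes, their change with age is given as a description with no test. The tests of age rest on the birds fed methylmercury, whose values the choice did not use. In those birds age cannot be told apart from length of exposure. The comparisons of treatment, sex and cohort draw on the control values too, and support nothing about the choice.

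Messenger RNA was sequenced from bulk bone marrow of zebra finches (Taeniopygia guttata) bred from stock of varied past exposure. Control birds and birds given food with methylmercury (MeHg) at 1.2 ppm were killed at day 6, 18, 35 or 90. The control groups held 17, 21, 19 and 21 libraries at those ages and the MeHg groups 15, 25, 21 and 22, with 74 females and 87 males in all, and each group held both sexes and both breeding cohorts. The labels give the MeHg dose in the food and not in the bird, and nothing in them separates the bird's own exposure from that of its parents. Nothing in the labels says whether 2 libraries come from 1 bird or 1 brood, so a p-value here reflects only how these libraries vary among themselves. Each title carries a code that several libraries share, 16 codes over the 83 MeHg libraries and 18 over the 78 controls. Its meaning is not given, and the main fits do not use it.

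Bone marrow is the main site where young birds make red cells, thrombocytes and granulocytes, and it lies among bone, cartilage, fat and vessels whose share changes as a nestling grows. The zebra finch leaves the nest close to the second of the 4 ages, feeds itself by the next and is adult at the last. In bulk marrow, fewer cells of a type and less RNA per cell cannot be told apart. The table names genes by Ensembl identifier only. None of the identifiers (0 of 17292) was paired with a symbol by the RefSeq gene table used here, so no function, cell type marker or sequence is given for any gene, and the labelled tissue could not be set against its defining markers. Lists of blood, bone, cartilage, fat, vessel and muscle marker genes could not be read for the same reason, and their part in the results was not tested.

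The libraries held 4572638 to 14968673 recovered reads, with a median of 7637898. RNA integrity (RIN, where 10.0 would be intact RNA) was recorded for 65 MeHg and 62 control libraries and was lowest at day 6, with medians of 7.75 in MeHg birds and 7.7 in controls, against medians of 8.7 to 9.1 at the later ages. Among MeHg birds the day 6 values ran from 6.8 to 8.4 and the day 18 values from 7.7 to 9.2. The 2 control libraries left out by the rule, day 90 replicates 15 and 16, are females of cohort 2. Both lay on the late side for the 28 genes, with 6 and 7 genes above the midpoint defined below. Set against the 19 day 90 controls that the rule kept, replicate 15 lay above all of them for 4 of the 28 genes and below all of them for 2, and replicate 16 for 3 and 2. With both libraries included the rule chose 29 genes, of which 22 were among the 28.

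The range, flatness and direction criteria each removed most of the genes that reached them, apart from the limit on the late stretch. Of the 17292 genes, 11297 had a highest mean of at least 5, and 2560 of these also had a range of at least 1. Only 207 of the 2560 stayed within 0.5 from day 6 to day 18. Of those that also stayed within 0.5 from day 35 to day 90, 28 had both early means above both late means, and the reverse, both late means above both early ones, was the more frequent. Dropping the flatness criteria left 304 genes with both early means above both late ones, of which 229 failed on the day 6 to day 18 step alone, 10 on the day 35 to day 90 step alone and 37 on both. Dropping the range criterion instead left 2045 genes. All 28 genes passed the filter on low values, 15 or more libraries with a value of 10 or higher, which 14042 genes passed.

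Several of the genes sat close to a limit. ENSTGUG00000012568 was just inside the range limit at 1.00 and ENSTGUG00000005122 just outside it at 0.989. ENSTGUG00000019522 was just inside the day 6 to day 18 limit at -0.496, and ENSTGUG00000025263 just outside it at -0.504. ENSTGUG00000019211 was just inside the day 35 to day 90 limit at -0.498, and ENSTGUG00000026246 just outside it at -0.505. With a flatness limit of 0.25, 2 of the 28 genes were left.

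In control birds the 28 genes were not lost, and most of them stepped down by degrees. The median differences over the 28 genes were -0.33 for the first step, -0.54 for the step between days 18 and 35, and -0.25 for the last, so the middle step was the deepest but held 49.6% of the whole difference in the median gene and 25.3% in the lowest. It was the deepest step in 21 genes (against 31.6% of all genes tested), with 5 for the first step and 2 for the last. Of the 28, 19 were lower at each age than at the one before (against 9.29% of all genes tested). The rule limited the first and the last step and required a drop between them, so a deepest middle step is largely built into these counts. The day 18 level was 1.45 times the day 35 level in the median gene and 2.12 times in the gene with the largest drop. The day 90 level was 48.8% of the day 6 level in the median gene and 40.1% in the lowest. Over the libraries of both treatments, 2 of the genes had any at 0: ENSTGUG00000015307 in 7 libraries, of which 4 were controls, and ENSTGUG00000011834 in 1 MeHg library. A description as held to day 18 and lost by day 35 is therefore stronger than the control group means, which in most genes were lower by degrees.

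**Figure D1:**
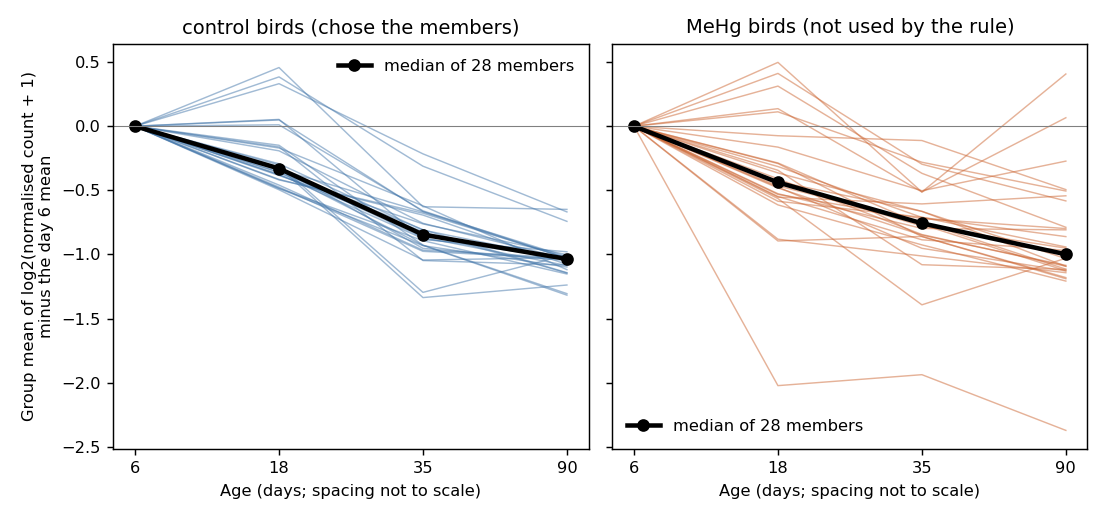
Mean log2(normalised count + 1) of each of the 28 genes at 4 ages, minus its day 6 mean, in control birds (left, the libraries that chose the genes) and MeHg birds (right, not used in the choice); thin lines are genes and the thick line is their median. Taken gene by gene, the steps have medians of -0.33, -0.54 and -0.25 in controls and -0.44, -0.34 and -0.23 in MeHg birds. These medians need not equal the steps of the thick line. The lowest line in the right panel is ENSTGUG00000015307.

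ENSTGUG00000001096 had the largest gap between early and late control means, 0.92. In control birds its lowest, median and highest normalised counts were 162.8, 361 and 933 on day 6, 134.2, 415 and 579.8 on day 18, 38.2, 135.97 and 695 on day 35, and 65.9, 175 and 482 on day 90. In MeHg birds they were 146.6, 387 and 709.7 on day 6, 75.3, 231 and 909.9 on day 18, 81.9, 183 and 415 on day 35, and 45.7, 173.2 and 475 on day 90. The medians of the 2 treatments stood apart most at day 18, and within both treatments the ages overlapped widely.

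ENSTGUG00000012382, second in rank with a gap of 0.89, had a far smaller gap of 0.04 in MeHg birds. Its control medians were 152.3, 101.96, 53.3 and 56.5 at the 4 ages. In MeHg birds the lowest, median and highest values were 21.9, 93.8 and 279 on day 6, 16.7, 67.6 and 337 on day 18, 24.4, 66.1 and 1172 on day 35, and 13.8, 58.01 and 219.8 on day 90. The MeHg medians at days 18 and 35 were almost equal, and 1 day 35 bird held the highest value of any group.

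The genes spanned a wide range of abundance. ENSTGUG00000014970 and ENSTGUG00000007828 had the highest control day 18 means. In MeHg birds the lowest, median and highest values of ENSTGUG00000014970 were 6662, 8512 and 14098 on day 6, 4109.8, 5993 and 9026 on day 18, 3090.1, 4992 and 6981 on day 35, and 3190.4, 4433 and 6348 on day 90. ENSTGUG00000007828 had MeHg medians of 4206, 2734, 2059 and 1842 at the same ages. For the first of these every day 6 bird lay above every day 90 bird.

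In MeHg birds the 28 genes were again lower late than early, with the first and the middle step of similar depth: by group means each was the deepest in 13 genes. Over all 14042 genes tested the first step was the deepest in 6252 and the middle one in 4411, so the 13 at the first step was close to the share of all genes. Days 35 and 90 together were lower than days 6 and 18 together in 23 of the 28 genes at an adjusted p under 0.05 (limma with Benjamini-Hochberg adjustment over all 14042 genes tested), where 27.98% of all genes passed in that direction. All 28 estimates were below 0, from -1.50 to -0.05, with a median of -0.66 against 0.01 over all genes. The smallest p values belonged to ENSTGUG00000009773, at -0.79 ± 0.06 (SE) on the log2 scale with an adjusted p of 6.93e-18, and ENSTGUG00000020798, at -0.86 ± 0.08 with an adjusted p of 4.33e-15. This comparison was added after the steps had been seen.

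ENSTGUG00000020798 showed the drop in its medians, while birds of neighbouring ages overlapped. Its lowest, median and highest values in MeHg birds were 1361, 1957 and 3017 on day 6, 799.9, 1763 and 2433 on day 18, 661, 1151 and 2243 on day 35, and 497, 880.0 and 1240.1 on day 90. Of the 25 day 18 birds 22 lay above the day 35 median, and 20 of the 21 day 35 birds lay below the day 18 median. Control birds held medians of 1742, 1612, 1107 and 936 at the same ages.

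ENSTGUG00000009773 was similar at a lower level. Its MeHg values were 290.0, 366 and 509 on day 6, 168.3, 303 and 389 on day 18, 141.2, 210.0 and 325 on day 35, and 109.9, 179 and 282 on day 90. The day 6 and day 90 ranges did not overlap, and those of days 18 and 35 did. Every day 6 value lay above every day 90 value in 4 of the 28 genes, where 1.84% of all genes did so, and they were these 2 genes, ENSTGUG00000014970 and ENSTGUG00000003568. In no gene at all did every day 18 value lie above every day 35 value (0 of 28, and 0.0% of all genes).

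ENSTGUG00000003568 had MeHg values of 627, 774 and 1318 on day 6, 377, 561 and 852 on day 18, 227, 443 and 694 on day 35, and 192, 382 and 560.3 on day 90. Its day 18 birds stood closer to the day 35 birds than to those of day 6 by their medians. ENSTGUG00000012568, by contrast, had values of 334, 432 and 677 on day 6, 227, 506 and 643 on day 18, 213, 336 and 641 on day 35, and 202, 324 and 398 on day 90, with its highest median at day 18. Profiles that drop from the first age on and profiles that hold until day 18 were both present among the 28 genes.

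The middle step, from day 18 to day 35, passed the test in 14 of the 28 genes in MeHg birds, all lower, where 15.9% of all genes were called lower. The median estimate was -0.35 against 0.03 over all genes, and 25 of the 28 estimates were below 0. Of the genes with the largest gap in controls, ENSTGUG00000001096 was lower by this test at -0.68 ± 0.19 with an adjusted p of 0.00495, and ENSTGUG00000012382 was at 0.14 ± 0.32 with an adjusted p of 0.77. Of the genes with the smallest gap, ENSTGUG00000012568 was at -0.43 ± 0.09 with an adjusted p of 0.000267, and ENSTGUG00000000740 was at -0.02 ± 0.17 with an adjusted p of 0.944. Of these 4 genes, 1 with a large and 1 with a small gap in controls passed.

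The 2 most abundant genes both passed at this step. ENSTGUG00000014970 was at -0.35 ± 0.08 with an adjusted p of 0.00067, and ENSTGUG00000007828 at -0.50 ± 0.13 with an adjusted p of 0.00157. Of the 25 day 18 birds 24 lay above the day 35 median of ENSTGUG00000007828, and 22 did so for ENSTGUG00000014970. The most negative estimates were those of ENSTGUG00000011834, at -0.96 ± 0.43 with an adjusted p of 0.0733, and ENSTGUG00000028066, at -0.83 ± 0.30 with an adjusted p of 0.0288.

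Both of these genes varied strongly between birds of 1 age. ENSTGUG00000011834 had lowest, median and highest values of 1.77, 19.8 and 87.99 in MeHg birds on day 6, 2.79, 29.5 and 116.7 on day 18, 0, 8.13 and 243 on day 35, and 1.14, 21.5 and 58.3 on day 90. The day 35 group held both the lowest and the highest value of the gene. ENSTGUG00000028066 had values of 3.10, 208 and 292 on day 6, 62.8, 190.3 and 437 on day 18, 27.4, 108.96 and 315 on day 35, and 0.742, 120.98 and 239 on day 90. The lowest birds of the day 6 and day 90 groups were near 0 for this gene.

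The first step, from day 6 to day 18, along which the control means had to stay within 0.5, passed the test in 16 of the 28 genes in MeHg birds, all lower, where 27.6% of all genes were called lower. The median estimate was -0.43, against -0.35 for the middle step, an order that turned with RIN in the model (-0.26 against -0.35). ENSTGUG00000014970 was at -0.56 ± 0.10 with an adjusted p of 3.48e-06, and ENSTGUG00000005656 at -0.63 ± 0.13 with an adjusted p of 2.81e-05. The values of ENSTGUG00000005656 ran from 276 to 586 with a median of 438 at day 6 and from 158.9 to 408 with a median of 274 at day 18. Its control medians at these ages were 477 and 353, within the limit of the rule.

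RNA integrity moved with this step. Among the libraries with a recorded RIN, 11 genes were called from day 6 to day 18, counting either direction. When RIN was added to the model 4 were called, with a median of -0.26 and 18 of 28 estimates below 0. Of these 4, 3 were among the 16 called in all MeHg libraries without RIN. Over all genes the count called lower, a different measure from the 11 and 4, went from 3673 to 3211 with RIN added. Neither named gene passed then, with ENSTGUG00000014970 at -0.20 and an adjusted p of 0.239 and ENSTGUG00000005656 at -0.42 and an adjusted p of 0.0827. From day 18 to day 35 the same addition took the count from 13 to 14, and these 14 were the genes called in all MeHg libraries without RIN. The comparison of the late with the early ages went from 23 to 18 genes, all of them among the 23. Age and RIN cannot be fully told apart here, since the day 6 and day 18 RIN ranges overlap only in part.

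The largest single step belonged to ENSTGUG00000015307, named after its values were seen. Its MeHg median was 113.8 at day 6 and 23.2, 18.5 and 18.3 at the later ages, and the estimate from day 6 to day 18 was -2.67 ± 0.67 with an adjusted p of 0.000471. Single day 6 birds ran from 1.09 to 341, and birds at 0 occurred at each later age. In controls the day 6 and day 18 medians were 56.8 and 42.8.

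From day 35 to day 90 only ENSTGUG00000001411 passed, at -0.38 ± 0.11 with an adjusted p of 0.0362 (1 of 28, where 0.57% of all genes were called lower). The median estimate of the 28 genes was -0.18, and 10 of them had an unadjusted p under 0.05, 1 of these upward (ENSTGUG00000001670), against 2274 of all 14042 genes. ENSTGUG00000001411 had MeHg values of 393, 693 and 1253 on day 6, 565, 800.1 and 1667 on day 18, 243, 535 and 1510 on day 35, and 251, 392 and 759 on day 90. Its highest median was at day 18 in both treatments, and 25 of 25 day 18 birds lay above the day 35 median. The call was lost in 16 of the 83 fits that each left out 1 MeHg library.

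**Figure D2:**
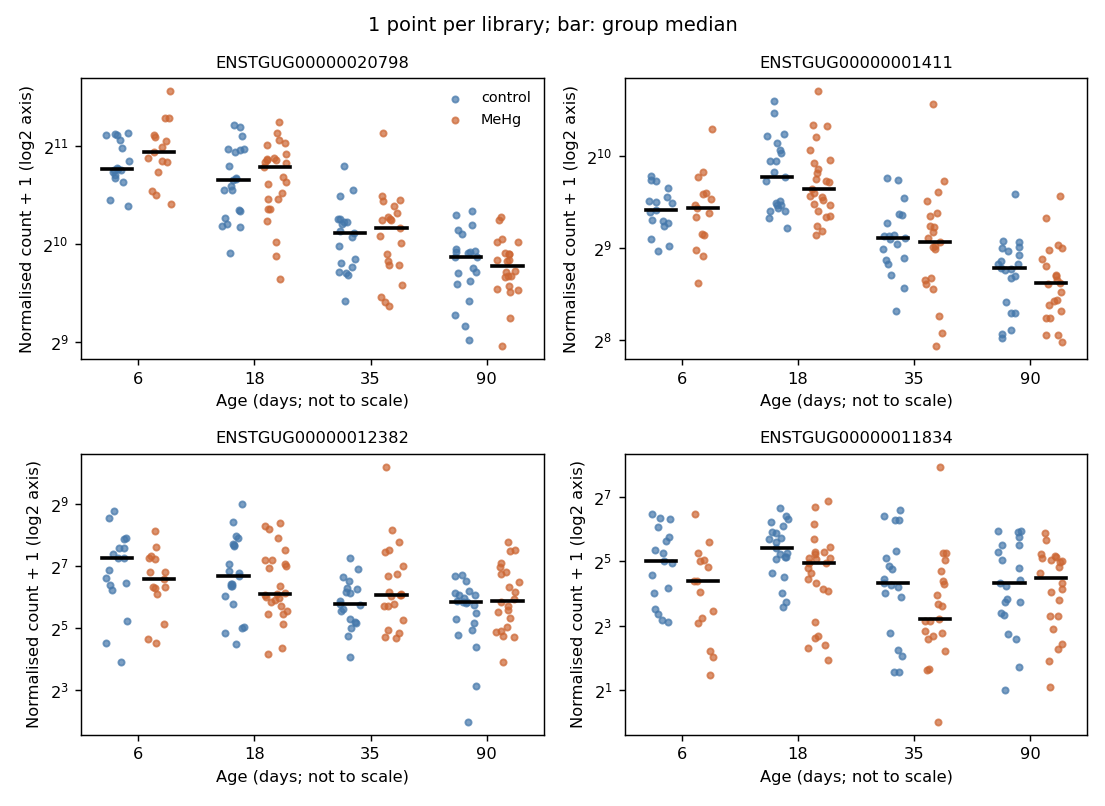
Normalised count plus 1 on a log2 axis by age for 4 of the 28 genes, with 1 point for each library and a bar at each group median. The groups of ENSTGUG00000020798 and ENSTGUG00000001411 drop between days 18 and 35 with overlapping birds, while ENSTGUG00000012382 and ENSTGUG00000011834 spread widely at every age.

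Taken by gene, the steps were shared unevenly. In MeHg birds 9 of the 28 genes passed at both the first and the middle step, 7 at the first only, 5 at the middle only and 7 at neither, of which 2 passed when the late ages were compared with the early ones. No gene passed in the upward direction at any step. The 5 genes that did not pass between the late and the early ages were ENSTGUG00000000740, ENSTGUG00000001670, ENSTGUG00000010624, ENSTGUG00000011834 and ENSTGUG00000012382, with estimates from -0.61 to -0.05 and adjusted p values from 0.0723 to 0.899. ENSTGUG00000001670 had MeHg medians of 60.1, 61.8, 29.3 and 85.97 at the 4 ages, with a highest value of 969 at day 90. Its control medians were 67.3, 58.7, 34.9 and 27.7, so the day 90 medians of the treatments lay on opposite sides of the day 35 ones.

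**Figure D3:**
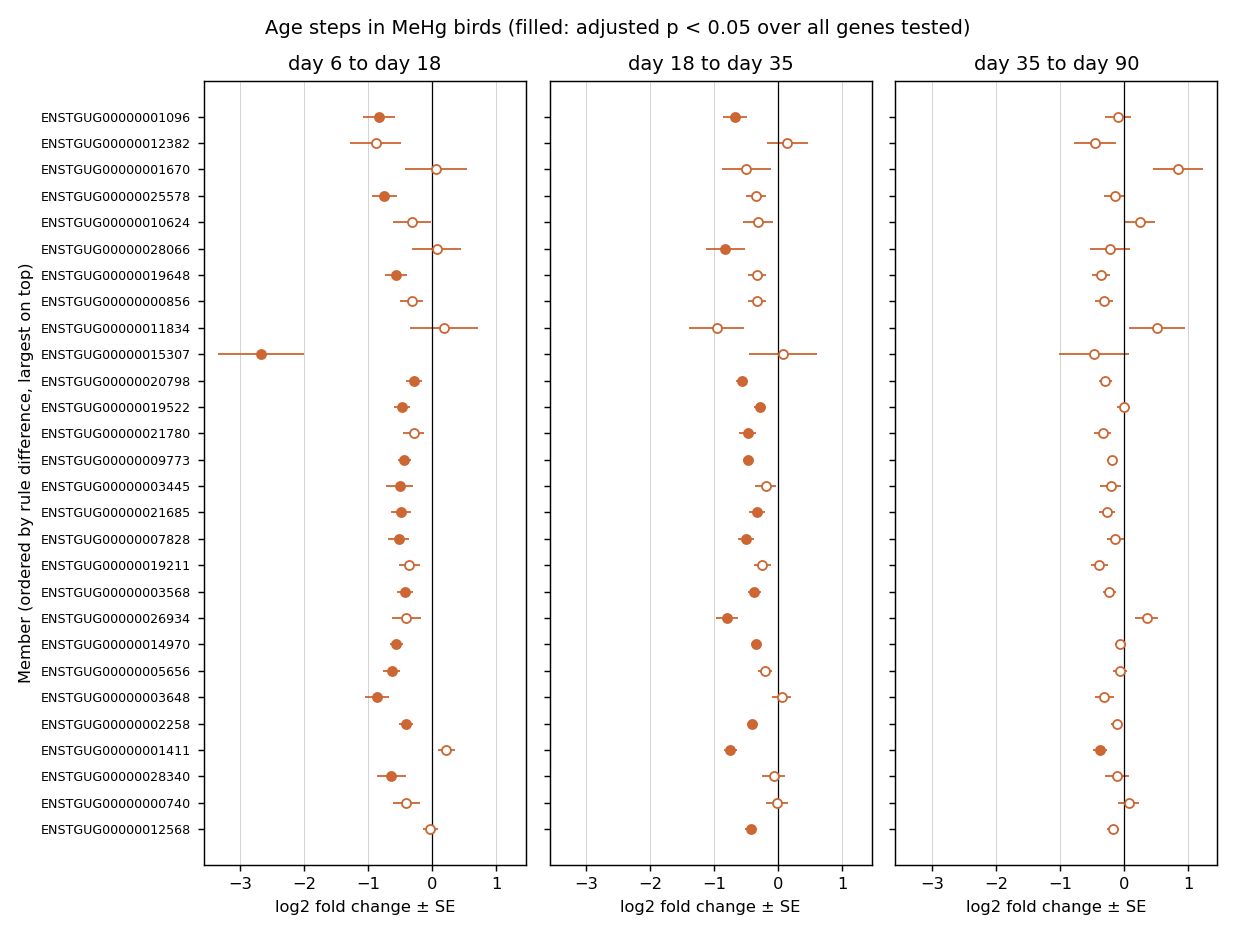
Estimates of the 3 age steps in MeHg birds for each of the 28 genes, as log2 fold change with its SE, ordered by the gap in controls; filled points had an adjusted p under 0.05 over all 14042 genes tested. Filled points number 16, 14 and 1 from left to right, and all lie left of 0.

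Group means were also compared without the model. In MeHg birds 23 of the 28 genes had both early means above both late means (82.1%, against 21.5% of all genes tested). A lower mean at day 35 than at day 18 was found in 26 (92.9%, against 46.3%). Of the 28, 18 were lower at each age than at the one before (64.3%, against 11.4%). The deepest step was the first in 13 genes (against 6252 of all 14042), the middle one in 13 (46.4%, against 31.4% of all genes tested) and the last in 2. For the first step this share was close to that of all genes. The means met the limit for both flat stretches in 16 genes (57.1%, against 53.7% of all genes tested), a share close to that of all genes. A range of at least 1 was found in 16 of the 28 genes, against 3765 of all 14042. The rule applied to the MeHg birds chose 34 genes, of which 10 were among the 28, which is 35.7% of the 28 and 29.4% of the 34.

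Bird by bird, the 28 genes placed most birds on the side of their age. For each bird and gene the log2 value was set against the midpoint between the early and the late control means, and the median over the 28 genes was taken, as a description with no test. In MeHg birds all 15 at day 6 were above 0, from 0.12 to 0.95 with a median of 0.49, and 19 of 25 at day 18 were above 0, from -0.38 to 0.69 with a median of 0.11. At day 35, 18 of 21 were below 0, from -0.72 to 0.15 with a median of -0.24, and at day 90 all 22 were below 0, from -0.83 to -0.09 with a median of -0.43. Control birds, which set the midpoint, had medians of 0.51, 0.27, -0.33 and -0.43. The day 18 and day 35 birds overlapped in both treatments, and the day 6 and day 90 birds did not. In controls, whose means also chose the genes, a gap between early and late birds is favoured by the choice.

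**Figure D4:**
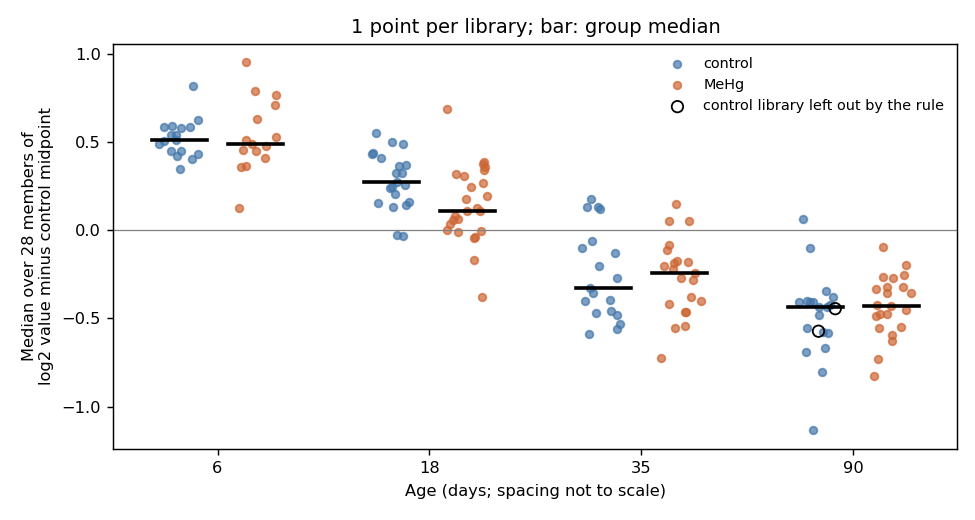
For each library, the median over the 28 genes of its log2 value minus the midpoint of the early and late control means, by age and treatment; bars are group medians and rings mark the 2 control libraries left out by the rule. Medians go from 0.51 to -0.43 in controls and from 0.49 to -0.43 in MeHg birds, and days 18 and 35 overlap.

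MeHg birds were also compared with controls directly. The controls chose the genes for being high at days 6 and 18 and low at days 35 and 90, so a difference below 0 at the early ages and above 0 at the late ones is built into this comparison. At day 18, 25 of 28 estimates were below 0 with a median of -0.18, and at day 6, 16 were below 0 with a median of -0.06. At day 35, 18 were above 0 with a median of 0.06, and at day 90, 15 were above 0 with a median of 0.03. No gene passed at any single age, where the share of all genes that passed was 0.0356%, 0.128%, 0.0783% and 0.199% in order of age. At an unadjusted p under 0.05 there were 3, 4, 3 and 3 of the 28 genes in order of age, against 797, 1602, 1247 and 2133 of all 14042. At these ages edgeR called none of the 28, and DESeq2 called 1 at day 90 and none at the other ages.

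Averaged over the 4 ages, 2 of the 28 genes passed in either direction (7.14%, against 7.48% of all genes), and both were lower in MeHg birds. The share called was close to that of all genes, so the count sets the 28 genes apart in nothing. ENSTGUG00000026934 was at -0.39 ± 0.10 with an adjusted p of 0.00806 and ENSTGUG00000028066 at -0.49 ± 0.14 with an adjusted p of 0.0123. With the title code as a random effect ENSTGUG00000028066 had an adjusted p of 0.0623 and ENSTGUG00000026934 kept its call. The latter had an adjusted p of 0.0978 on the libraries with a RIN. The MeHg medians of ENSTGUG00000026934 were 51.4, 40.9, 22.98 and 26.2 at the 4 ages against 60.96, 47.4, 33.2 and 33.02 in controls, lower at each age, with overlapping birds throughout. The medians of ENSTGUG00000028066 were 208, 190.3, 108.96 and 120.98 against 224, 255, 154.98 and 122.3, and the birds near 0 described above are all in the MeHg groups, while the lowest control value was 46.3. Within cohorts neither gene held in both: ENSTGUG00000026934 was at -0.35 and -0.40 in cohorts 1 and 2 with adjusted p of 0.255 and 0.091, and ENSTGUG00000028066 was at -0.94 in cohort 1 with an adjusted p of 0.0193 and at -0.05 in cohort 2 with an adjusted p of 0.908. The birds near 0 for ENSTGUG00000028066, at 3.10 on day 6 and 0.742 on day 90, were of cohort 1. The lowest value in cohort 2 was 38.2. The cohort 1 fit was not repeated without those birds.

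The age profile was not shown to differ between treatments by the test of treatment by age. None of the 28 genes passed (0.0% of all genes did), with 4 of the 28 and 754 of all genes at an unadjusted p under 0.05. By edgeR and by DESeq2, 5 of all genes passed and none of the 28. In controls only, the rule had limited the first and the last step and had required a drop between them. The test sets the MeHg steps against those control steps, so it draws on values that the choice used.

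Sex marked 1 of the 28 genes. ENSTGUG00000001096 was higher in males at 0.87 ± 0.10 on the log2 scale with an adjusted p of 1.15e-12 (1 of 28, where 8.08% of all genes passed in either direction). Its median was 153.5 in 74 females and 265 in 87 males. By age the female medians were 286, 165.1, 108.07 and 120.5 and the male medians 424, 446, 205 and 179.8, higher in males at each age with overlapping birds. In MeHg birds alone the difference was 0.72 ± 0.15 with an adjusted p of 0.000193. The chromosome of this gene is not given in the sources used here.

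**Figure D5:**
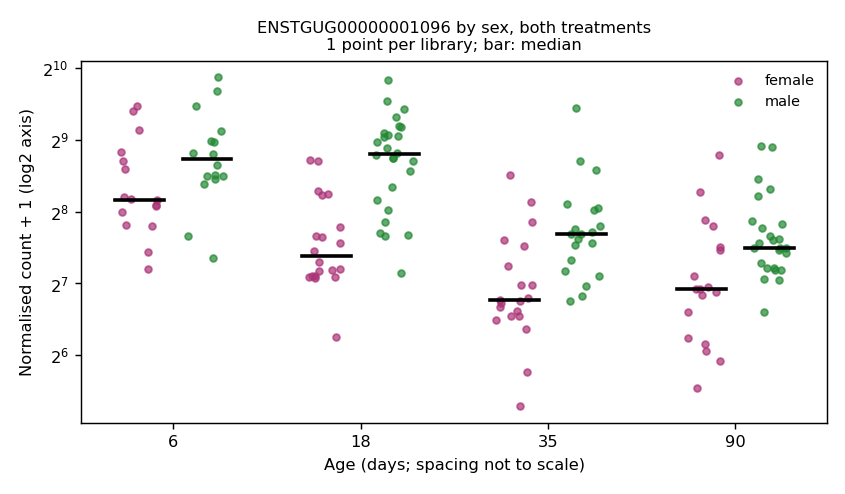
Normalised count plus 1 of ENSTGUG00000001096 on a log2 axis by age and sex, both treatments together, with 1 point for each library and a bar at each median. The male bar lies above the female bar at each age. From day 18 to day 35 the male medians go from 446 to 205 and the female ones from 165.1 to 108.07. Control birds, whose drop chose this gene, are part of these medians. In MeHg females alone the step was -0.18 with an adjusted p of 0.806 by limma.

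The middle step was not shown to depend on sex or cohort. No member passed for sex by that step in MeHg birds (0.057% of all genes did), with 4 of 28 and 1715 of all genes at an unadjusted p under 0.05. No member passed by edgeR or DESeq2, and DESeq2 gave 9 of the 28 no adjusted p. For cohort by that step there was also none (0.0% of all genes passed), with 4 of 28 and 1181 of all genes at an unadjusted p under 0.05, none of all genes by edgeR and 1 of all genes, not among the 28, by DESeq2. Fitted in parts of the MeHg birds, the step passed in 11 of the 28 genes in males and 4 in females, with medians of -0.38 and -0.27, and in 9 in cohort 1 and 4 in cohort 2, with medians of -0.42 and -0.30. Over all genes 1760 were called lower in males, 402 in females, 1235 in cohort 1 and 182 in cohort 2. The counts of all genes thus fell as well. Cohort 2 gave fewer calls than cohort 1 though it held more MeHg libraries, 13 and 13 against 12 and 8 at days 18 and 35. The cause of these differences was not tested. ENSTGUG00000001096 was at -0.18 with an adjusted p of 0.806 in females alone, and ENSTGUG00000014970 at -0.02 with an adjusted p of 0.948.

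The cohorts differed in level for 4 of the 28 genes, where 15.99% of all genes passed. ENSTGUG00000001411 was higher in cohort 2 at 0.31 ± 0.06 with an adjusted p of 5.03e-05, with medians of 549 in cohort 1 and 668 in cohort 2. ENSTGUG00000019648 was higher in cohort 2 at 0.25 ± 0.08 with an adjusted p of 0.0127. ENSTGUG00000012382 was lower at -0.60 ± 0.18 with an adjusted p of 0.0112, with medians of 81.4 and 61.1, and ENSTGUG00000010624 was lower at -0.35 ± 0.11 with an adjusted p of 0.0251. The share called was close to that of all genes. With the title code as a random effect, on the libraries with a RIN, and with RIN added, only ENSTGUG00000001411 kept its call.

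Birds of 1 age differed from each other in these genes about as much as in others. The SD of the log2 values within MeHg groups had a median of 0.48 over the 28 genes, from 0.28 to 1.81, and of 0.46 over all genes tested. Within groups the 28 genes followed each other weakly across the 83 MeHg libraries. The 378 pairs had a median Pearson r of 0.11, with 5% of pairs under -0.19 and 5% above 0.46, and all pairs of tested genes had a median of -0.003 with the same limits at -0.38 and 0.40. The highest values were those of ENSTGUG00000012568 with ENSTGUG00000009773, r = 0.67, and with ENSTGUG00000020798, r = 0.66. These r values share the libraries' depth and scaling and are a description.

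Many genes outside the 28 followed their mean level across the MeHg libraries. The r used for this holds differences between ages together with differences between birds of 1 age, so it does not measure the age profile alone. Over the 83 MeHg libraries the 28 genes had a median r of 0.60 with their own mean log2 value, which includes each gene, and 601 of the 14014 other genes tested were above that. The closest were ENSTGUG00000013271, r = 0.84 with medians of 334, 228, 165.7 and 142.8 at the 4 ages, and ENSTGUG00000017262, r = 0.84 with medians of 8707, 6768, 5366 and 5142. Both step down from the first age on, and within age groups their r was 0.56 and 0.50. The most opposite were ENSTGUG00000009649, r = -0.82 with medians of 356, 416, 490.2 and 551, and ENSTGUG00000023988, r = -0.82 with medians of 105.3, 172.1, 392 and 509. Within age groups their r was -0.51 and -0.395.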

How the data were processed

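Bulk bone marrow mRNA was sequenced, and the authors deposited 1 table of gene-level signal values: reads per gene scaled by a single factor for each library. Per the submitters' processing notes, featureCounts (Subread), DESeq2 1.30.1 and R 4.0.2 were used; which genome build and gene models were used, and whether strand was counted, is not given in the sources used here. Every deposited value was a whole number of reads (100% within 1e-06) divided by 1 factor per library, 0.574 to 1.75, so reads were recovered for the alternatives. Of 169 labelled libraries 161 were used; 8 are not analysed here.

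The members, marker lists and tests were chosen with earlier results of these data known. log2(value + 1) was fitted with limma 3.58.1 (trend, robust; R 4.3.3) for the 14042 genes in which 15 or more libraries had a value of 10 or higher, with Benjamini-Hochberg adjustment over all of them. Age steps used the 83 MeHg libraries with sex, cohort and plate as covariates; treatment, sex and cohort used all 161. An adjusted p under 0.05 was called. Fold changes on this scale understate those of low genes. Genes named are the 2 with the largest and smallest rule difference, the 2 highest at day 18 in controls, the 2 with the largest fall from day 18 to day 35 in MeHg birds, up to 2 per direction and contrast with the smallest p, and the 2 closest and most opposite non-members; others are named as single members of small counts, as those beside a limit, or after their values were seen. The model was tested on simulated data. Alternatives were edgeR 4.0.16 and DESeq2 1.42.0 on recovered reads, TMM scaling, other pseudocounts, no filter, other covariates, RIN, title code, each sex and each cohort, and leaving out each MeHg library.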

Additional observations from a re-analysis of the deposited data

How the results depend on the processing

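The count of the 28 genes called lower at days 35 and 90 than at days 6 and 18 in MeHg birds stayed between 18 and 24 in every alternative run, and between 23 and 25 when each MeHg library was left out. The day 18 to day 35 count (14) fell to 4 in females, 9 in cohort 1 and 4 in cohort 2, and ran from 13 to 17 over the fits without 1 library. The day 6 to day 18 count (16) was 4 with RIN added, 4 in males, 5 in cohort 1 and 9 in cohort 2, and ran from 14 to 18 without 1 library. The day 35 to day 90 count (1) was 2 by DESeq2 and 0 without covariates, in females, in cohort 1 and in cohort 2, and ran from 0 to 2 without 1 library. The count for MeHg over the 4 ages (2) was 1 with the title code as a random effect, 0 in males, 0 in females, 1 in cohort 1 and 0 in cohort 2. The count for cohort (4) was 1 with RIN added, 1 on the libraries with a RIN and 1 with the title code. The count for MeHg at day 90 (0) was 1 by DESeq2. Counts of all genes are given for the day 18 to day 35 step by sex and cohort and for the first step with RIN. The other shifts stand without them and are not a result about the 28 genes. The cause of these shifts was not tested.

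Signs turned for 3 named genes at the day 18 to day 35 step, none of them called in the main fit. ENSTGUG00000012382 was at -0.037 without covariates and -0.30 in males, and from -0.042 to 0.23 without 1 library. ENSTGUG00000000740 was at 0.077 in males, and from -0.071 to 0.043 without 1 library. ENSTGUG00000011834 was at 0.29 in females and 0.028 in cohort 1. With the sign of the main fit, ENSTGUG00000011834 was called in 2 of 17 alternatives and in 4 of the 83 fits without 1 library. With pseudocounts of 0.5 and 5 the rule chose 27 and 24 genes, of which 27 and 20 were among the 28. No paired analysis was possible because the replicate numbers were given in accession order and the labels carry none. Libraries that share a title code within a cohort had a correlation of 0.075 in the fit of MeHg birds. It was 0.10 in the fit of all libraries, which gave the treatment, sex and cohort results. Precision is limited by 15 to 25 MeHg libraries per age and by counting error in the low genes.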
